A study of Rattus norvegicus with 6 samples.

Results

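The genes described here encode the subunits of the proteasome and the proteins that activate, inhibit or assemble it. They were found as the non-control array probes whose transcript accession maps to a rat symbol starting with Psma, Psmb, Psmc, Psmd, Psme, Psmf or Psmg. The rule gave 81 probes of 46 genes, out of 15645 named genes on the array, and all 46 genes passed the filter on dim probes. Of these, 14 encode the standard core, 16 the cap and 5 the immunoproteasome and its activator (Psmb8, Psmb9, Psmb10, Psme1 and Psme2). The other 11 are further activators and an inhibitor (3), assembly chaperones (5), a germ cell subunit (1) and genes that share the prefix without being subunits (2). Psmb11, Psmd11, Psmg1 and Psmg3 had no named probe and were not analysed here.

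The proteasome is the protease that degrades ubiquitin-tagged proteins in the cytosol and nucleus. Its barrel-shaped core stacks rings of alpha subunits, which gate the entrance, on rings of beta subunits, some of which carry the proteolytic sites. The cap recognises ubiquitin, unfolds the substrate with a ring of ATPases and feeds it into the core. In immune cells, and in other cells exposed to interferon gamma, inducible beta subunits replace the standard catalytic ones and form the immunoproteasome, which favours peptides suited to class I antigen presentation. When proteasome activity is impaired, the transcription factor Nrf1, encoded by Nfe2l1, raises the transcription of subunit genes together. Nrf2, encoded by Nfe2l2, also acts on some of them under oxidative or electrophilic stress.

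Total RNA of the renal cortex was measured on 1-colour (Cy3) oligonucleotide arrays, 1 array per rat. All rats were male Sprague-Dawley (Crl:CD(SD)) animals, 5 weeks old at purchase and kept on a basal diet. The vehicle group (3 rats) received corn oil for 4 weeks. The treated group (3 rats) received thiobis(6-tert-butyl-m-cresol) in its 4,4' form, a phenolic antioxidant called TBBC from here on, at 300 mg/kg/day over the same time. The design text calls the replicates biological. A level is the log2 of a probe's processed signal over the 75th percentile of its array, so 0 marks that percentile, and each gene is read from its brightest probe. Levels of different probes are not comparable with each other, and the number of arrays limits the precision.

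The arrays held 67.1% to 70.9% of probes well above background. Vehicle 1 to 3 and TBBC 1 shared a slide and a scan, while TBBC 2 and TBBC 3 were on another slide with its own scan. Of 32956 transcripts tested with limma, 175 (0.531%) passed an adjusted p of 0.05. With 1 array left out, that count ran from 6 (without vehicle 2) to 274 (without TBBC 3). It was 10 without vehicle 1, 14 without vehicle 3 and 58 without TBBC 2. All 11 renal epithelial markers were measured, among them Slc34a1 and Lrp2 of the proximal tubule. Their summed linear level was 1403 to 1516 in vehicle rats and 1146 to 1216 in TBBC rats. The brightest of them, Slc34a1, Umod and Slc22a6, had log2 fold changes of -0.15, -0.91 and -0.31. Over the 11 markers the median was -0.25, up to 0.26 for Slc12a3, and Slc5a2 was at -0.02. Of 25 leukocyte markers, 22 were measured, each of them well above background on at least 1 array. Their summed level was 172 to 184 in vehicle rats, 127 in TBBC 1, 128 in TBBC 2 and 256 in TBBC 3. Such a sum weighs the brightest markers most, here Lyz2 and Cd74, whose log2 fold changes were 0.12 and -0.85. The median deviation of the 22 markers from the vehicle mean was -0.24, 0.10 and 0.13 in vehicle 1 to 3. In TBBC 1 to 3 it was -0.18, -0.45 and 0.72. TBBC 3 was the highest TBBC rat for 20 of those 22 markers, against 33.7% of all transcripts.

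No proteasome gene passed the threshold: 0 of 46 had a limma adjusted p under 0.05, against 0.531% of all transcripts. Within that limit, levels lay slightly higher after TBBC for most members. The mean was higher in 40 of 46 genes and lower in 6, where 46.5% of all transcripts had a higher mean. The median log2 fold change was 0.18 over the members, with a median fold of 1.13, and -0.02 over all transcripts. All 3 TBBC rats lay above all 3 vehicle rats in 15 members, where 13.1% of transcripts did so, and no member lay wholly below, where 15.2% of transcripts did. An unadjusted p under 0.05 was found for 8 members, each with the higher mean in TBBC, against 9.55% of all transcripts in that direction. They were Psmb10, Psme2, Psme1, Psmg4, Psma4, Psma3, Psmb3 and Psma5. Other settings of the test called 1 member (normexp background correction, Psmb10) or 2 (eBayes with trend and robust, Psmb10 and Psme2). Those settings also called more transcripts of any kind, 764 and 1087, against 175 in the main fit. Of 24 members with several tested probes, the probes differed from vehicle in the same direction in 19 and in both directions in 5 (Psmc6, Psmd3, Psmd9, Psme4 and Psmf1). In bulk tissue, a change in the share of a cell type and a change of RNA per cell cannot be told apart.

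**Figure D1:**
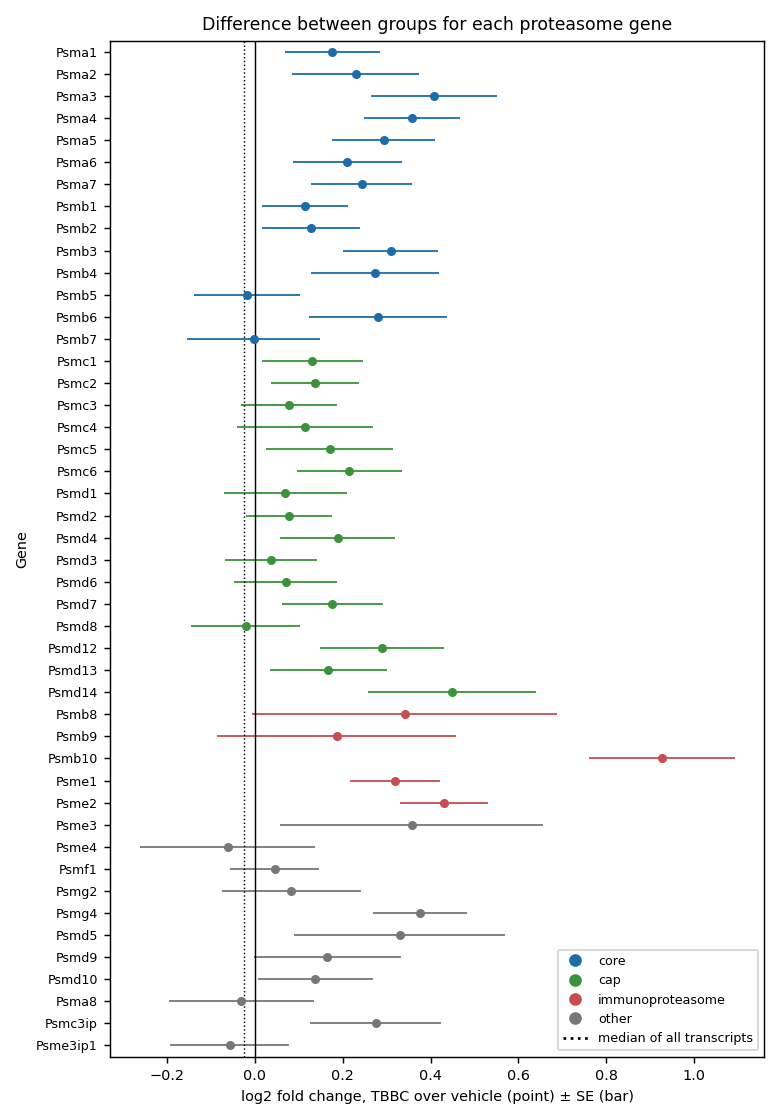
Log2 fold change of each of the 46 proteasome genes (x axis, TBBC over vehicle; point with a bar of ± 1 SE from the limma fit over 3 and 3 arrays; the gene on the y axis), coloured as core, cap, immunoproteasome or other. The dotted line at -0.02 is the median of all transcripts; 40 points lie above 0, and Psmb10 stands farthest out at 0.93.

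The members differed in how the treated rats ranked among themselves. The median deviation from the vehicle mean over all 46 genes was 0.22 in TBBC 1, 0.26 in TBBC 2 and 0.03 in TBBC 3. TBBC 3 was the lowest of the treated rats for 12 of 14 core genes and 15 of 16 cap genes, where it was lowest for 34.4% of all transcripts. For the 5 immunoproteasome genes it was never the lowest and was the highest for 4. Without TBBC 3, both remaining treated rats exceeded every vehicle rat in 37 members, where 21.1% of transcripts did so, and 0 members passed the threshold. That was the highest such count with 1 array left out. Over all arrays left out in turn it ran from 15 to 37 members, and the share of all transcripts from 15.6% to 21.1%. On the slide that held both groups, TBBC 1 alone exceeded all 3 vehicle rats in 40 members, where 34.5% of transcripts did. With slide as a term in the fit, which leaves TBBC 1 as the treated rat set against vehicle, the members' median was 0.22 and 0 members passed. The members were also tighter among vehicle rats (median SD 0.06) than among treated ones (0.16). Over all transcripts these were 0.13 and 0.23. The vehicle arrays shared a slide and the treated arrays did not, so the treated SD also holds any slide difference.

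**Figure D2:**
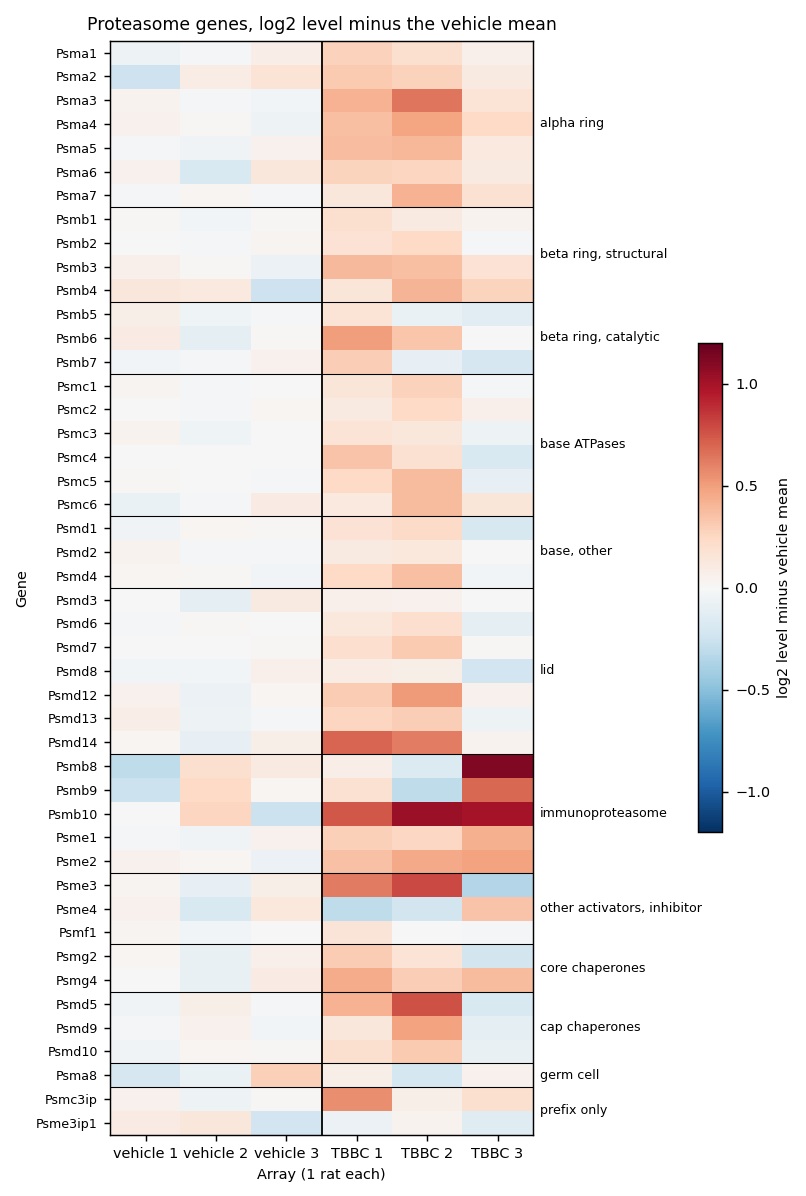
Level of each of the 46 proteasome genes (rows, grouped by role) on each of the 6 arrays (columns, 1 rat each) as its log2 difference from the vehicle mean, red above and blue below. Most core and cap genes are red in TBBC 1 and TBBC 2 and pale in TBBC 3, whereas Psmb8, Psmb9 and Psmb10 are strongest in TBBC 3 or, for Psmb10, in TBBC 2 and TBBC 3.

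Among the immunoproteasome genes, 3 of 5 were higher in every treated rat than in every vehicle rat, where 13.1% of all transcripts were, and the median log2 fold change was 0.34. Psmb10, the inducible trypsin-like subunit, had the largest difference of all members. Its level was 2.58, 2.84 and 2.32 in vehicle 1 to 3 and 3.33, 3.62 and 3.58 in TBBC 1 to 3. All treated rats lay above all controls, and the means differed by more than either SD (means 2.58 ± 0.26 and 3.51 ± 0.16, SD, n = 3). The log2 fold change was 0.93 ± 0.17 (SE), a fold of 1.90, with a limma adjusted p of 0.0741 that missed the threshold. Over the other settings that adjusted p ran from 0.0338 (eBayes with trend and robust) to 0.276 (slide as a fixed term). Within the slide that held both groups, where TBBC 1 was the only treated rat, the log2 fold change was 0.75.

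Psme1 and Psme2 encode the alternating subunits of the interferon-inducible activator ring, which opens the core without ATP. Psme2 was at 4.96, 4.93 and 4.84 in vehicle rats and at 5.26, 5.37 and 5.40 in TBBC rats. Psme1 was at 5.27, 5.24 and 5.33 against 5.57, 5.53 and 5.71. Neither gene's groups overlapped, and the treated rats lay within a narrow band. The log2 fold change was 0.43 ± 0.10 for Psme2 (limma adjusted p 0.106) and 0.32 ± 0.10 for Psme1 (0.171). A further probe of each gene gave nearly the same difference, 0.45 for Psme2 and 0.33 for Psme1. Both genes have pseudogenes or like copies in the RefSeq table, as do 19 of the 46 members, so a probe's signal may hold RNA of a copy.

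Psmb8 and Psmb9, the inducible chymotrypsin-like and caspase-like subunits encoded in the major histocompatibility complex, ordered the rats differently. Psmb8 was at 0.55, 1.06 and 0.97 in vehicle rats and at 0.94, 0.70 and 1.97 in TBBC rats. Psmb9 was at 1.08, 1.58 and 1.36 against 1.52, 1.03 and 2.03. Only TBBC 3 exceeded the vehicle rats, and TBBC 2 lay at or near the bottom for both genes. The log2 fold changes of 0.34 ± 0.35 and 0.19 ± 0.27 were within their errors, and without TBBC 3 they were -0.04 and -0.06. The median deviation of this pair from the vehicle mean was 0.13 in TBBC 1, -0.24 in TBBC 2 and 0.90 in TBBC 3. The 22 leukocyte markers ran in the same order, at -0.18, -0.45 and 0.72. In vehicle rats the markers were at -0.24, 0.10 and 0.13, and Psmb8 with Psmb9 at -0.29, 0.22 and 0.07. Both were lowest in vehicle 1, but the pair was highest in vehicle 2 and the markers in vehicle 3. For Psmb10, Psme1 and Psme2 together the deviations were 0.35, 0.46 and 0.49. The part of leukocyte RNA in these levels was not tested.

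Promoters of 6 members are shown to set the genes whose groups separated beside those whose groups overlapped, a choice made after their values were seen. Psmb10 and Psme2 had the smallest adjusted p, Psmb8 and Psmb9 are the inducible subunits that overlapped, and Psma3 and Psmb5 had the highest and the lowest log2 fold change of the core. Each run is from RefSeq, build GRCr8, 5′ to 3′ along the gene, from 250 bases before the transcript start to 30 bases from the start on. The windows are chr19:50743263-50743542, minus strand, for Psmb10; chr15:33052722-33053001, minus strand, for Psme2; chr20:4657002-4657281, minus strand, for Psmb8; chr20:4668750-4669029, plus strand, for Psmb9. Those of the core genes are chr6:95219499-95219778, plus strand, for Psma3, and chr15:32047350-32047629, minus strand, for Psmb5. Capitals mark matches to the interferon-stimulated response element (GAAANNGAAA), the gamma-activated sequence (TTCNNNGAA) and the antioxidant response element core (TGACNNNGC), searched on both strands, with no overlap among them.
Psmb10: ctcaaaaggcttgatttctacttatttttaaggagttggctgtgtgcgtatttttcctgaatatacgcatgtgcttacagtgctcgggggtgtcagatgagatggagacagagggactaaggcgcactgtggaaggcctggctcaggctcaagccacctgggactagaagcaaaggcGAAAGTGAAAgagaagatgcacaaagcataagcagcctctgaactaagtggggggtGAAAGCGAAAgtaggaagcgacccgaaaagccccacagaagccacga
Psme2: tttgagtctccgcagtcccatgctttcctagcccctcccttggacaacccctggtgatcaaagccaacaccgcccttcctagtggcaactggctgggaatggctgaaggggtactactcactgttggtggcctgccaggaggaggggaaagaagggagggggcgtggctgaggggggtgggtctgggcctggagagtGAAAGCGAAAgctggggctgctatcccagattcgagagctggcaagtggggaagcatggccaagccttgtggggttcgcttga
Psmb8: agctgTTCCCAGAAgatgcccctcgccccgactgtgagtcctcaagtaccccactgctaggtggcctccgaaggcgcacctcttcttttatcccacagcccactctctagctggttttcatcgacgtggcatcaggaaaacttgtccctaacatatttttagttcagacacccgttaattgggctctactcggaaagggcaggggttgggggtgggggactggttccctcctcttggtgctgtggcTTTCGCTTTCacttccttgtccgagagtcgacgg
Psmb9: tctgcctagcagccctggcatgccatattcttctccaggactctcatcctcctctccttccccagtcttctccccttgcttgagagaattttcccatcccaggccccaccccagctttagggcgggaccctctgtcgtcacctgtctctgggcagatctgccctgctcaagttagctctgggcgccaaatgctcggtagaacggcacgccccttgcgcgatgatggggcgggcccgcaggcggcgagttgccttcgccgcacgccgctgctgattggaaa
Psma3: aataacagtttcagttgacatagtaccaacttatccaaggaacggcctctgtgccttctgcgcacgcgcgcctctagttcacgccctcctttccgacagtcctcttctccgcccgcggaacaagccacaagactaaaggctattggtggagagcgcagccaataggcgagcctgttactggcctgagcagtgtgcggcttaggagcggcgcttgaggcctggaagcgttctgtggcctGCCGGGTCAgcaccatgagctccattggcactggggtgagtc
Psmb5: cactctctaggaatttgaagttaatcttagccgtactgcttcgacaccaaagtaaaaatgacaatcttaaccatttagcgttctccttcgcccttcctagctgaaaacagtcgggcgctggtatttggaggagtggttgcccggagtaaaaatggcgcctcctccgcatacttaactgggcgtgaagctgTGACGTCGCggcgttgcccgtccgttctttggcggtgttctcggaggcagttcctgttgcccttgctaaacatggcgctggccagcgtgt

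Psmb10 held GAAANNGAAA at 2 places, from -73 to -64 and from -17 to -8, and Psme2 at 1, from -53 to -44. Psmb8 held it on the opposite strand across its start, from -4 to 6, and had a TTCNNNGAA match from -245 to -237. Psmb9 matched none of these motifs in this window. A TGACNNNGC match lay from -12 to -4 on the opposite strand in Psma3 and from -60 to -52 in Psmb5. Over the 42 members with a promoter in the table, GAAANNGAAA was found in 7 (16.7%), where 3.75% of all 33469 promoters of this length held it. The 7 were Psma4, Psmb3, Psmb8, Psmb10, Psmd7, Psme2 and Psmg4. TGACNNNGC was found in 8 members (19%) against 11.3% of promoters, TTCNNNGAA in 4 (9.52%) against 8.42%, and the CCAAT box (CCAAT, not capitalised above) in 22 (52.4%) against 36.2%. A match describes letters and not a bound site. Psma7, Psmd6, Psmd12 and Psmd14 are not in the table.

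The standard catalytic subunits, which the inducible ones replace, did not separate between groups. Psmb5, the chymotrypsin-like subunit, was at 4.74, 4.61 and 4.64 in vehicle rats and at 4.83, 4.59 and 4.52 in TBBC rats, a log2 fold change of -0.02 ± 0.12. Psmb7, the trypsin-like subunit, was at 3.08, 3.10 and 3.17 against 3.41, 3.02 and 2.91 (0.00 ± 0.15). For both genes TBBC 1 was the highest of all 6 rats and TBBC 3 the lowest. Psmb6, the caspase-like subunit, was at 3.02, 2.81 and 2.94 against 3.43, 3.26 and 2.92, with a log2 fold change of 0.28 ± 0.16 (limma adjusted p 0.374). With slide as a fixed term the fold changes were 0.17 for Psmb5, 0.29 for Psmb7 and 0.51 for Psmb6, all read from TBBC 1.

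The change of each inducible subunit was then set against that of the standard subunit it replaces, in 3 pairs. For Psmb10 and Psmb7 the inducible subunit's difference exceeded the standard one's by 0.93 on the log2 scale, and the treated rats did not overlap the controls. The two-sided exact permutation p was 0.10, the smallest that 3 against 3 rats can give, and 0.30 after adjustment over the 3 pairs. The excess was 0.36 for Psmb8 and Psmb5 (exact p 0.70, adjusted 1.0). For Psmb9 and Psmb6 it was -0.09 (exact p 1.0, adjusted 1.0).

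**Figure D3:**
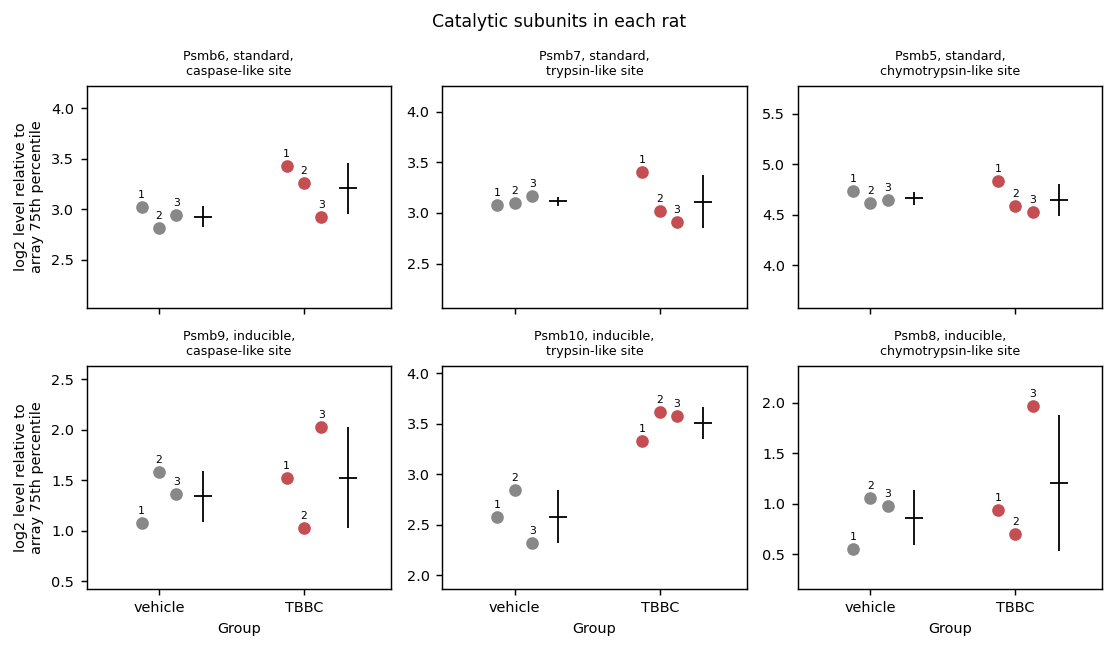
Log2 level relative to the array's 75th percentile (y axis) of the 3 standard catalytic subunits (top) and the inducible subunits that replace them (bottom) in the vehicle and TBBC groups (x axis). Points are single rats with their replicate number, and the black mark with a bar is the mean ± SD; each panel spans the same range of log2 units. In the panel of Psmb10 the TBBC rats (3.33 to 3.62) lie above all vehicle rats (2.32 to 2.84), and in those of Psmb8 and Psmb9 only TBBC 3 does.

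Of the rest of the core, no gene passed the test and 7 of 11 had groups that did not overlap, where 13.1% of all transcripts lay higher in that way. All 7 alpha ring genes had a higher mean after TBBC, with log2 fold changes of 0.18 (Psma1) to 0.41 (Psma3). In 4 of them, Psma3, Psma4, Psma5 and Psma7, the groups did not overlap. Psma3 was at 3.93, 3.87 and 3.86 in vehicle rats and at 4.30, 4.53 and 4.05 in TBBC rats, with a log2 fold change of 0.41 ± 0.14 (limma adjusted p 0.195). Psma4 was at 5.46, 5.42 and 5.35 against 5.77, 5.88 and 5.65 (0.36 ± 0.11, limma adjusted p 0.155). For both, the lowest treated rat was TBBC 3 and still lay above every control. A further probe of Psma3 gave 0.15 and one of Psma4 gave 0.47. On that Psma3 probe the groups overlapped (1.71, 1.30 and 1.61 against 1.67, 1.64 and 1.77), and on that of Psma4 they did not. Psma1 was at 3.82, 3.86 and 3.95 against 4.15, 4.07 and 3.94, so that TBBC 3 lay among the controls.

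Of the beta subunits without a proteolytic site, Psmb1 to Psmb4, all 4 had a higher mean in TBBC and 3 did not overlap. Psmb3 was at 4.70, 4.65 and 4.57 in vehicle rats and at 5.03, 4.998 and 4.82 in TBBC rats, with a log2 fold change of 0.31 ± 0.11 (limma adjusted p 0.196). Psmb1 had the smallest difference of these, 0.11 ± 0.10, from 3.34, 3.29 and 3.33 to 3.51, 3.43 and 3.36, yet its groups did not overlap. Psmb2 and Psmb4 lay between them, at 0.13 ± 0.11 and 0.27 ± 0.15. Over the 14 core genes the median log2 fold change was 0.24, and 7 of 14 did not overlap (13.1% of all transcripts). The core medians were 0.28 in TBBC 1, 0.30 in TBBC 2 and 0.11 in TBBC 3, and the vehicle rats spread from -0.02 to 0.03. Within the slide that held both groups, where TBBC 1 was the only treated rat, the core median was 0.28.

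In the cap the higher levels were those of TBBC 1 and TBBC 2. The median log2 fold change was 0.13 over 16 genes, and 3 of them (Psmc2, Psmc6 and Psmd12) did not overlap, a share near the 13.1% of all transcripts. On another tested probe of each of these genes the groups overlapped. There TBBC 3 was at 4.49 for Psmc2 (vehicle 4.55 to 4.62) and at 3.07 for Psmd12 (vehicle 3.14 to 3.27). A further Psmc6 probe did not overlap. The median deviation of the cap genes was 0.17 in TBBC 1, 0.26 in TBBC 2 and -0.03 in TBBC 3. All 16 cap genes lay above the vehicle mean in TBBC 1 and in TBBC 2, and 5 did in TBBC 3. Of all 32956 transcripts, 15648, 15034 and 16031 did so in TBBC 1 to 3. Without TBBC 3 the cap median was 0.23, and without TBBC 2 it was 0.07. Within the slide that held both groups, where TBBC 1 was the only treated rat, it was 0.17.

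Among the base ATPases, which unfold the substrate, the mean was higher in 6 of 6. Psmc6 had the largest difference (3.11, 3.16 and 3.29 against 3.30, 3.56 and 3.33; 0.22 ± 0.12) and Psmc3 the smallest (3.13, 3.04 and 3.10 against 3.26, 3.22 and 3.03; 0.08 ± 0.11). Probes of Psmc6 differed in sign, from -0.09 to 0.24. Of the other base subunits, Psmd4, a ubiquitin receptor, was at 3.70, 3.69 and 3.65 against 3.92, 4.04 and 3.65 (0.19 ± 0.13). Psmd1, a scaffold subunit, was at 5.32, 5.38 and 5.38 against 5.53, 5.59 and 5.16 (0.07 ± 0.14). In Psmd1 and Psmd4 TBBC 1 and TBBC 2 lay above all controls, and TBBC 3 was the lowest of the 6 rats, narrowly so in Psmd4. Psmd2, the other scaffold subunit of the base, was at 0.08 ± 0.10.

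In the lid, which removes ubiquitin from the substrate, Psmd14 and Psmd8 marked the ends of the range. Psmd14, the lid's deubiquitinase, was at 0.78, 0.65 and 0.82 in vehicle rats and at 1.45, 1.36 and 0.79 in TBBC rats. TBBC 1 and TBBC 2 exceeded the controls clearly, and TBBC 3 lay among them, so that the log2 fold change was 0.45 ± 0.19 (limma adjusted p 0.264). With 1 array left out it ran from 0.33 (without TBBC 1) to 0.65 (without TBBC 3). Psmd8, a structural lid subunit, was at 2.86, 2.86 and 2.95 against 2.98, 2.96 and 2.66 (-0.02 ± 0.12). The other lid genes had log2 fold changes of 0.04 (Psmd3) to 0.29 (Psmd12). TBBC 3 was the lowest treated rat for all 7 lid genes.

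Of the remaining regulators, none separated the groups. Psme3, whose product forms a nuclear activator ring, was at 2.88, 2.76 and 2.92 in vehicle rats and at 3.48, 3.65 and 2.51 in TBBC rats. TBBC 1 and TBBC 2 lay above every control and TBBC 3 below every control, and the log2 fold change was 0.36 ± 0.30. It was 0.71 without TBBC 3, 0.22 without TBBC 1 and 0.14 without TBBC 2. Psme4, a single-chain nuclear activator, was at 2.00, 1.76 and 2.08 against 1.64, 1.72 and 2.28 (-0.06 ± 0.20). On this probe TBBC 1 and TBBC 2 lay below every control and TBBC 3 above. Its other probes both gave 0.24, with TBBC 2 above every control. Psmf1, named as an inhibitor, was at 2.75, 2.68 and 2.72 against 2.87, 2.71 and 2.71 (0.05 ± 0.10).

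Among the 5 assembly chaperones, 1 had groups that did not overlap, a share near the 13.1% of all transcripts. Psmg4, which helps build the alpha ring, was at 2.64, 2.56 and 2.75 in vehicle rats and at 3.10, 2.95 and 3.03 in TBBC rats. Its groups did not overlap, TBBC 3 lay among the other treated rats, and 3 probes gave differences of 0.36 to 0.43. The log2 fold change was 0.38 ± 0.11 (limma adjusted p 0.142). Psmg2, another alpha ring chaperone, was at -0.04, -0.15 and 0.00 against 0.24, 0.10 and -0.28 (0.08 ± 0.16).

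Psmd5, Psmd9 and Psmd10 assist assembly of the base and are not part of the finished cap. Psmd5 was at 0.49, 0.60 and 0.51 against 0.95, 1.30 and 0.35 (0.33 ± 0.24), and its log2 fold change was 0.59 without TBBC 3 and 0.11 without TBBC 2. Psmd10, also called gankyrin, was at 1.54, 1.61 and 1.599 against 1.77, 1.89 and 1.495 (0.14 ± 0.13). In all 3 of these genes TBBC 3 was the lowest of the 6 rats and TBBC 2 the highest.

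Psma8, the alpha subunit of germ cell proteasomes, was dim and overlapped between groups, at -5.71, -5.59 and -5.23 in vehicle rats and at -5.44, -5.72 and -5.46 in TBBC rats. On 1 TBBC array it was not well above background. Psmc3ip, a cofactor of meiotic recombination that only shares the prefix, was at -0.32, -0.44 and -0.37 against 0.18, -0.30 and -0.19 (0.27 ± 0.15). Its groups did not overlap, with TBBC 1 farthest from the controls. Psme3ip1, whose product binds the Psme3 activator, was at 1.74, 1.78 and 1.42 against 1.58, 1.69 and 1.499 (-0.06 ± 0.14).

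A list was made of genes that supply ubiquitin, carry tagged proteins to the proteasome or bind it. Of its 33 genes 27 were tested and 0 passed in either direction, where 0.531% of all transcripts did. The list's median log2 fold change was 0.11, against -0.02 over all transcripts. The list's median was 0.02 without TBBC 2 and 0.18 without TBBC 3. The array medians were 0.08, 0.27 and -0.06 in TBBC 1 to 3. The smallest p was that of Rps27a, which encodes ubiquitin fused to a ribosomal protein, at 0.41 ± 0.10 (limma adjusted p 0.114). Zfand2a, a stress-inducible protein that binds the cap, was at 1.42, 1.53 and 1.61 in vehicle rats and at 3.59, 5.26 and 2.34 in TBBC rats, a log2 fold change of 2.21 ± 0.68 (limma adjusted p 0.160). Its treated rats all lay above the controls but spread widely. Sqstm1, a ubiquitin-binding autophagy receptor, was at 0.67 ± 0.36 (0.31 without TBBC 2, 1.06 without TBBC 3), and Sem1, a small lid subunit outside the symbol rule, at -0.19 ± 0.10. Adrm1, a ubiquitin receptor of the cap, was at 0.17 ± 0.22 and Pomp, which assembles the beta ring, at 0.06 ± 0.11.

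On the Nrf1 and Nrf2 route, 15 of 16 genes were tested, 1 rose and 0 fell, where 0.531% of all transcripts passed in either direction. The list's median log2 fold change was 0.43, or 0.70 without TBBC 3, against -0.02 over all transcripts. The gene that rose was Nqo1, a quinone reductase and Nrf2 target, at 4.53 ± 0.34 (limma adjusted p 0.0140). Without vehicle 1, 2 or 3 its adjusted p was 0.0920, 0.111 or 0.0503. Without TBBC 3 a further gene, Srxn1, passed. Nfe2l1, which encodes Nrf1, was at 0.87, 0.87 and 0.74 in vehicle rats and at 1.52, 1.53 and 0.93 in TBBC rats, a log2 fold change of 0.50 ± 0.19 (limma adjusted p 0.208). Its groups did not overlap, and TBBC 3 was the lowest treated rat. Nfe2l2 was at -0.01 ± 0.21. Srxn1, a redox enzyme, was at 3.20 ± 0.52 (limma adjusted p 0.0641), the repressor Bach1 at 1.07 ± 0.30 and Mafg, the small partner of both factors, at 0.42 ± 0.12. The array medians of this list were 0.69, 0.60 and 0.10 in TBBC 1 to 3.

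The list for antigen processing and interferon gamma ran in another order over the treated rats. Of 22 genes, 19 were tested and 0 passed in either direction, where 0.531% of all transcripts did. The list's median log2 fold change was 0.30, or 0.14 without TBBC 3, against -0.02 over all transcripts. The list's array medians were 0.14, 0.06 and 0.52, highest in TBBC 3. Tapbp, which encodes the peptide-loading chaperone tapasin, had the smallest p, at 0.78 ± 0.17 (limma adjusted p 0.0937), and was at -0.16, 0.29 and 0.30 against 0.86, 0.80 and 1.09. Ciita, a regulator of class II genes, was at -0.89 ± 0.23 (limma adjusted p 0.121) and Cd74, the class II invariant chain, at -0.85 ± 0.28 (0.171). Stat2, a transducer of interferon signals, was at 0.35 ± 0.11 (0.174).

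**Figure D4:**
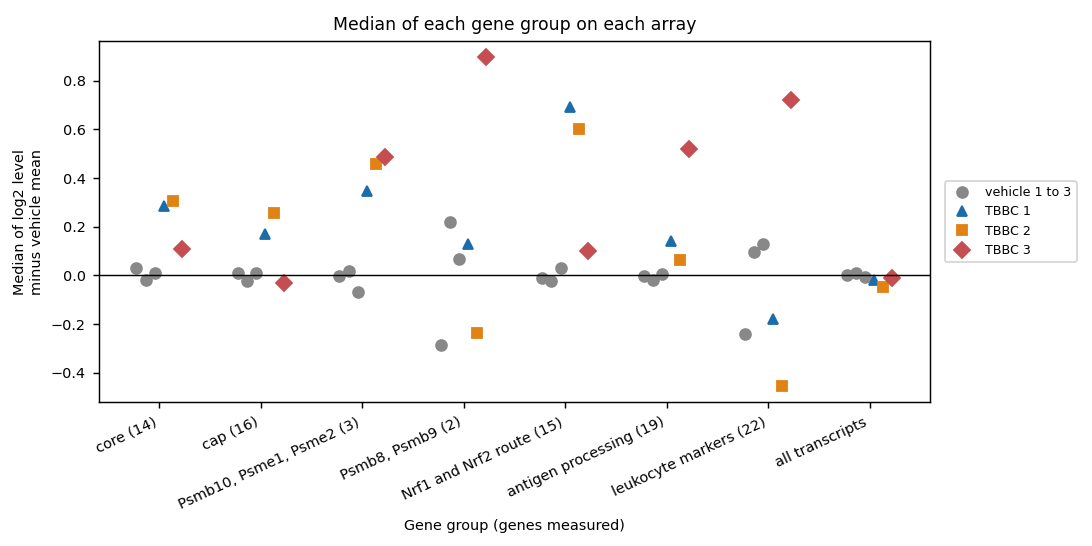
Median of the log2 level minus the vehicle mean (y axis) on each array for gene groups named on the x axis with the number of genes measured; grey circles are vehicle rats, and coloured symbols are TBBC 1, 2 and 3. Core, cap and the Nrf1 and Nrf2 route are lowest in TBBC 3 among treated rats, while Psmb8 with Psmb9 and the leukocyte markers are highest there (0.90 and 0.72). Psmb10, Psme1 and Psme2 are close in all 3 treated rats (0.35 to 0.49).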

How the data were processed

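Spot intensity values in the deposited scanner files were made by the authors with Agilent Feature Extraction (10.7.1.1 in the file headers, 10.7 in the submitters' processing notes). The processed signal is background-subtracted and not scaled between arrays. The authors' deposited value table holds a linear ratio, by comparison the processed signal over nearly the array's 75th percentile (column medians 0.107 to 0.114).

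Control spots (1439 of 62976) were dropped. Accessions matched to a RefSeq gene table (GRCr8) named 28206 of 61537 probes. The headers name another build, so probes carry no coordinates. The log2 of the signal over the 75th percentile was analysed without flagged spots (0 to 9 per array). Tested probes (41992) lay well above background throughout 1 group or both, with 2 or more unflagged arrays in each. A gene stood by its brightest probe and an unnamed probe for itself. The fit was limma 3.58.1 (lmFit, eBayes; two-sided; R 4.3.3; statmod 1.5.0), adjusted by Benjamini-Hochberg over 32956 transcripts. Its code was tried on simulated arrays with independent noise, the same spread in both groups and no slide difference. That trial does not cover the slide layout or the larger spread of the treated rats. Same-numbered arrays did not deviate together (r = -0.09, 0.03 and -0.07), and differently numbered ones ran from -0.13 to 0.21. These deviations are from each group's own mean and hold slide differences, so they cannot tell whether the numbers pair rats. The replicate numbers were not used as a block in the main fit.

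The members and gene lists were chosen with earlier results of these data known. Values per array are given for the catalytic subunits, Psme1 to Psme4, Psmf1 and each role's members with the highest and lowest log2 fold change, and for others where the text describes them. Of each list, members past the threshold and the 4 with the smallest p are named, with Nfe2l1, Nfe2l2, Pomp, Adrm1 and Sem1. Alternatives were other scalings, normexp background correction (offset 50, on the median signal), filters, ways to combine probes, variance models, slide and replicate terms, and each array left out.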

Additional observations from a re-analysis of the deposited data

How the results depend on the processing

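Of 1057 member values over 23 alternative settings, 1012 kept their direction and side of the threshold, 3 passed it only in the alternative and 42 changed sign. The eBayes trend and robust setting and the replicate block leave a member's log2 fold change as it is, so no sign could change there. With normexp background correction 764 transcripts passed the threshold, with 1 proteasome member (Psmb10, adjusted p 0.0434), 1 gene of the ubiquitin list, 2 of the Nrf1 and Nrf2 route and 1 of antigen processing. With eBayes trend and robust these counts were 1087, 2 (Psmb10, 0.0338; Psme2, 0.0397), 1, 2 and 0. Transcripts past the threshold numbered 52 with no filter on dim probes, 290 with the probe of smallest spread and 333 with every probe on its own, which called 2 genes of the Nrf1 and Nrf2 route. With slide as a fixed term 48 passed, 89.6% of them higher in TBBC against 48% without it, and within slide 1 307 passed, with 1 gene of the ubiquitin list, 4 of the Nrf1 and Nrf2 route and 1 of antigen processing. With the replicate number as a block 0 transcripts and 0 genes of the Nrf1 and Nrf2 route passed (limma). The members' median of 0.18 could not move there, since each block holds a vehicle and a TBBC array. With 1 array left out, 6 to 274 transcripts, 0 to 2 genes of the Nrf1 and Nrf2 route and 0 members passed. The median of all members was 0.15 to 0.22 over the settings and 0.11 to 0.26 with 1 array left out. The cause of these moves was not tested.

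These values changed sign. Psmb7 was at 0.0057 with median scaling, 0.047 with normexp, 0.019 with array weights, 0.046 with slide as a random block and 0.29 with slide fixed or within slide 1. Psmb5 was at 0.018 with normexp, 0.013 with slide random and 0.17 with slide fixed or within slide 1. Psma8 was at 0.026 with quantile normalization, 0.061 with normexp and 0.071 with slide fixed or within slide 1, and Psmd8 at 0.090 in the latter. Psmd3 was at -0.058 with the mean of its probes and -0.15 with the probe of smallest spread, and Psme4 at 0.14 with the mean of its probes. With normexp Psmd2 was at -0.0030, Psme3ip1 at 0.0059 and Nfe2l2 at 0.013, and Nfe2l2 was at 0.0026 with median scaling. Pomp was at -0.028 with quantile normalization and -0.015 with slide fixed or within slide 1. With 1 array left out, the values ran from -0.13 to 0.11 for Psma8, -0.11 to 0.044 for Psmb5, -0.15 to 0.097 for Psmb7, -0.042 to 0.59 for Psmb8, -0.064 to 0.43 for Psmb9, -0.0029 to 0.26 for Psmc4, -0.010 to 0.20 for Psmd1, -0.015 to 0.092 for Psmd3, -0.076 to 0.082 for Psmd8, -0.17 to 0.0099 for Psme3ip1, -0.26 to 0.058 for Psme4, -0.0089 to 0.074 for Psmf1, -0.027 to 0.23 for Psmg2, -0.0016 to 0.40 for Adrm1, -0.20 to 0.17 for Nfe2l2 and -0.017 to 0.098 for Pomp.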
